A study of Homo sapiens with 6 samples.

Results

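The MYC and MXD network is the set of 10 genes MYC, MYCN, MYCL, MAX, MXD1, MXD3, MXD4, MXI1, MNT and MGA, which were taken by gene name from a table of RNA-Seq counts in H1155 cells. Each name matched 1 row of the 58735 genes listed. H1155 is a human neuroendocrine large cell lung carcinoma line that expresses the transcriptional repressor GFI1. The 6 libraries came from untreated cells grown in DMEM with serum, 3 of them labelled WT and 3 labelled GFI1-KO. The GFI1-KO cells had been made with CRISPR/Cas9 and pairs of guides at the GFI1 promoter, and were then sorted as monoclonal GFP-positive clones. How many clones stand behind the 3 libraries is not given in the sources used here, so that a feature of 1 clone and an effect of the knockout cannot be told apart. For the same reason the spread between libraries may be technical, and p-values measure that spread alone.

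Proteins of the network share a basic helix-loop-helix leucine zipper, with which they pair with one another and bind DNA at E-boxes such as CACGTG. MYC, MYCN and MYCL each pair with MAX and activate transcription, and they are known for driving growth and proliferation in lung tumours. Neuroendocrine lung cancers may carry extra copies of 1 of the 3 genes. MXD1, MXD3, MXD4, MXI1 and MNT also pair with MAX but recruit the SIN3-HDAC corepressor to the same sites. MGA is a large MAX partner of the PRC1.6 complex, a Polycomb complex that silences germline genes.

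The libraries held between 14882914 and 17692882 counts, and the 3 labelled GFI1-KO were the deeper ones. Pearson's r of log2 CPM (counts scaled to the library total) was 0.991 to 0.993 within groups and 0.937 to 0.942 between them, across genes, which are not independent replicates. GFI1 itself had counts of 153, 106 and 125 in WT, against 174, 188 and 170 in GFI1-KO. It was thus not lower in the latter (log2 fold change 0.31, SE 0.12, adjusted p = 0.0273 by the quasi-likelihood test of edgeR, adjusted over all genes after Benjamini and Hochberg). The call was lost with DESeq2 (adjusted p = 0.127) and without WT replicate 2, where the log2 fold change was 0.21. Gene counts cannot show whether a transcript is functional, and every direction given here rests on the labels. The 9 neuroendocrine markers summed to 2000 to 2040 CPM in WT and to 2430 to 2470 CPM in GFI1-KO, and SYP and NCAM1 were abundant in all 6 libraries. Of 4 epithelial markers none was at 0, and their sum was 205 to 217 CPM in WT and 239 to 263 CPM in GFI1-KO. The members of this sum did not move together, as KRT8 was called higher (log2 fold change 0.45, and 0.03 and not called after the correction for GC content and length described below) while EPCAM (-2.23) and CDH1 (-2.31) were called lower. The leukocyte markers PTPRC, CD3E and CD14 and the endothelial marker VWF stayed at or under 3 counts everywhere, 3 counts being taken as the smallest level a library can show. Sums were 0.191 to 0.373 against 0.171 to 0.509 CPM for 4 leukocyte markers and 27.0 to 30.4 against 13.2 to 14.9 CPM for 3 endothelial markers. PECAM1 (log2 fold change -1.12, called lower) made up most of the endothelial sum, while CDH5 (0.47) was not called. The 6 fibroblast markers, with DCN at 0, summed to 191 to 196 CPM in WT and 133 to 138 CPM in GFI1-KO. COL1A2 (-0.54) made up most of that sum, while COL3A1 went from 2, 3 and 2 counts to 129, 143 and 170, and PDGFRB fell from 136, 128 and 135 counts to 17, 15 and 15. The part of these differences in the results below was not tested, and in bulk RNA fewer cells of a type cannot be told apart from less RNA per cell.

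Among the 9 genes tested, MYCN, MXD3 and MNT changed most before any correction for GC content. MYCN fell 2.85-fold in GFI1-KO, whereas MXD3 rose 2.11-fold, MNT 2.04-fold and MAX 1.42-fold. Smaller decreases were called for MXI1, MXD4 and MGA, and MYC and MXD1 did not pass the test. MYCL had too few counts to be tested. Of the 9 genes tested, 3 were called higher and 4 lower at an adjusted p of at most 0.05. Among all 17514 genes tested, 36.5% were called higher and 35.9% lower, 72.4% in all, and the members' counts are near that background. The groups did not overlap for 3 higher and 3 lower members of the 9, beside 74.4% of all genes tested. The median log2 fold change was 0.11 over the members and 0.00 over all genes tested. Between these groups the fold change also rose with the GC content of a gene's transcripts (Spearman's rho 0.578 across 17415 genes, 0.0236 after a correction for GC content and length). Values after this correction are therefore given as well, and the cause of the trend was not tested. After it, 5740 of the 17415 genes were called higher and 4859 lower, which is the background for calls after the correction.

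Promoter sequence is shown for MYCN, the member that fell most among those tested, and for MNT and MXD4, whose windows held the E-box that the network's proteins bind. The windows are the 250 bases before a RefSeq transcript start (GRCh38.p14), cut where the gene's own annotated span begins, and capitals mark CACGTG.
MYCN, chr2:15940300-15940549, plus strand: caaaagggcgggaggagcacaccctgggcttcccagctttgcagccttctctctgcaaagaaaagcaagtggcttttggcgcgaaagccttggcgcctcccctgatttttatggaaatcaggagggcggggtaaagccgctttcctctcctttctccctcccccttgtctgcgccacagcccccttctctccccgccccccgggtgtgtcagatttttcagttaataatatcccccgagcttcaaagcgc
MNT, chr17:2401119-2401310, minus strand: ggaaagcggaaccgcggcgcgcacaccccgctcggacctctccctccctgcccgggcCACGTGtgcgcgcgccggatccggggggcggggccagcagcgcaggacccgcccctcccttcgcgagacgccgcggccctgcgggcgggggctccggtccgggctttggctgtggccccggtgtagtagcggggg
MXD4, chr4:2262295-2262359, minus strand: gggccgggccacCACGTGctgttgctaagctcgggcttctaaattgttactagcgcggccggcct
The E-box began 193 bases before the RefSeq start of MNT and 238 bases before that of MXD4. It was found in 2 of 14 windows, which belong to 9 of the 10 genes since MYC was left out, and in 6.34% of the 35116 RefSeq windows of this length. The letters AATCAC or GTGATT, the core of the site that GFI1 is known to bind, were found in 0 of the 14 windows and in 9.02% of all windows. CACGTG reads the same on both strands, and since AATCAC ends in CAC and GTGATT begins with GTG, the motifs can overlap. The MYCN window lies within MYCNOS, an antisense gene, whose exons cover 52 of its 250 bases. A match is a run of letters and no measured binding.

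**Figure D1:**
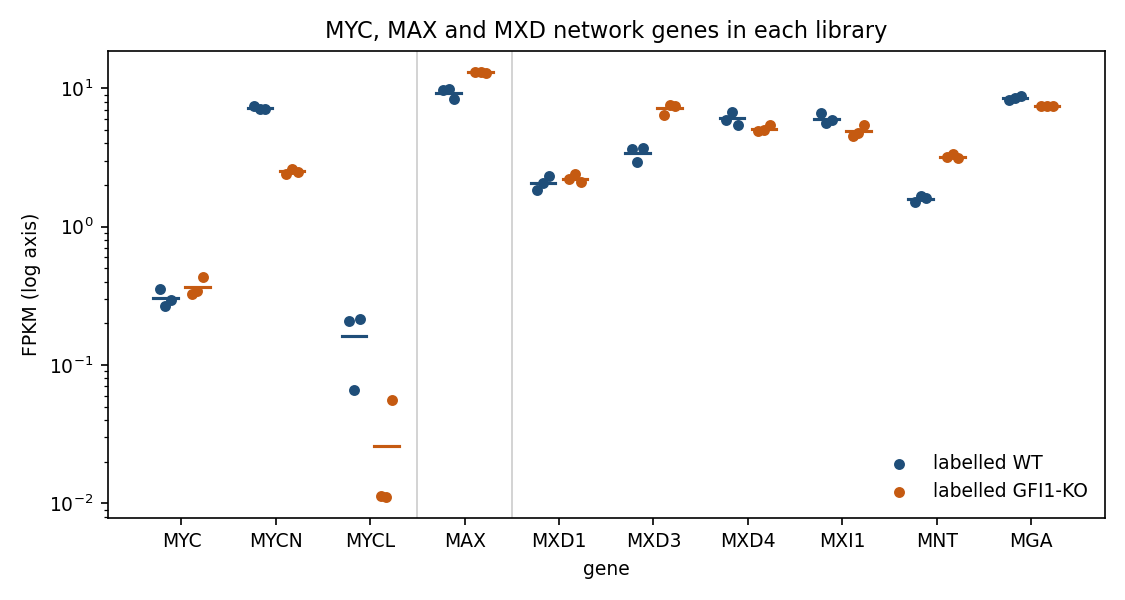
FPKM of the 10 genes on a log axis, with 1 point per library, blue for the 3 labelled WT and orange for the 3 labelled GFI1-KO, and a bar at each mean. MYCN points lie between 7.13 and 7.40 in WT and between 2.39 and 2.62 in GFI1-KO, while MXD3 and MNT lie higher in GFI1-KO and MYCL is lowest in both groups.

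Which of the 3 MYC genes led was asked within each group. FPKM was used for levels, that is the count scaled to the library total and to the deposited gene length. MYCN led in every library of both groups, MYC was the next and MYCL the lowest. In WT, FPKM was 7.22 ± 0.157 (SD, n = 3) for MYCN, 0.306 ± 0.0422 for MYC and 0.163 ± 0.0837 for MYCL. In GFI1-KO, it was 2.50 ± 0.115 for MYCN, 0.366 ± 0.0589 for MYC and 0.0261 ± 0.0257 for MYCL. The ranges of no pair among the 3 genes overlapped in either group. MYCN therefore exceeded MYC by 21.0, 26.5 and 24.0 times in the WT libraries and by 7.39, 7.69 and 5.77 times in the GFI1-KO libraries. Its share of the summed FPKM of the 3 genes was 93.9% ± 1.38 (SD, n = 3) in WT and 86.5% ± 2.50 in GFI1-KO. The first place of MYCN did not depend on the length used. The order of MYC and MYCL did, since per coding length MYCL stood above MYC in WT replicates 1 and 3. With no division by length, both had 17 counts in WT replicate 1, and MYCL stood above MYC in WT replicate 3 alone.

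MYCN (ENSG00000134323, chr2:15940564-15947007, plus strand, GRCh38, 3 exons) had 310, 276 and 291 counts in WT and 109, 120 and 115 in GFI1-KO. All 3 GFI1-KO libraries lay far below all 3 WT libraries. Normalised counts were 309 ± 6.89 (SD, n = 3) and 109 ± 4.94, a log2 fold change of -1.51 (SE 0.10, 95% interval -1.72 to -1.30, adjusted p = 4.9e-13 in edgeR's quasi-likelihood test). Of all genes tested, 3.36% had a lower log2 fold change than MYCN. With the GC and length correction the decrease was larger, with a log2 fold change of -1.96. An exact permutation test of 3 libraries against 3 cannot go below p = 0.1, the value that each member without overlap between the groups reached.

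MYCNOS, which is transcribed from the opposite strand and overlaps MYCN by 1686 bases, fell as well. It had 26, 34 and 18 counts in WT and 7, 4 and 9 in GFI1-KO (log2 fold change -2.11, SE 0.40, adjusted p = 3.6e-05 in edgeR). Whether the counting used strand is not given in the sources used here. Without it, reads in the overlap cannot be assigned to either gene. The overlap is one of gene spans, and of the 50-base words in MYCN transcripts 1.82% also occur in MYCNOS. Of those in MYCNOS transcripts, 13.0% occur in MYCNUT or MYCN. The nearest protein-coding genes on each side also fell, though less than MYCN. DDX1, an RNA helicase gene that lies on the lower-coordinate side, had a log2 fold change of -0.30 (adjusted p = 1.4e-08 in edgeR), and of -0.01 after the GC and length correction, at which it was no longer called. FAM49A, on the other side, had one of -0.79 (adjusted p = 8.2e-14 in edgeR) and of -0.41 after the correction. By the root mean square difference of centred log2 CPM over the 6 libraries, the genes most like MYCN among 11220 compared were ENC1 (0.042), SOWAHA (0.046) and TRIB2 (0.053). Their log2 fold changes were -1.54, -1.46 and -1.57. Since 2 groups dominate 6 libraries, this likeness is mainly that of the group difference.

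**Figure D2:**
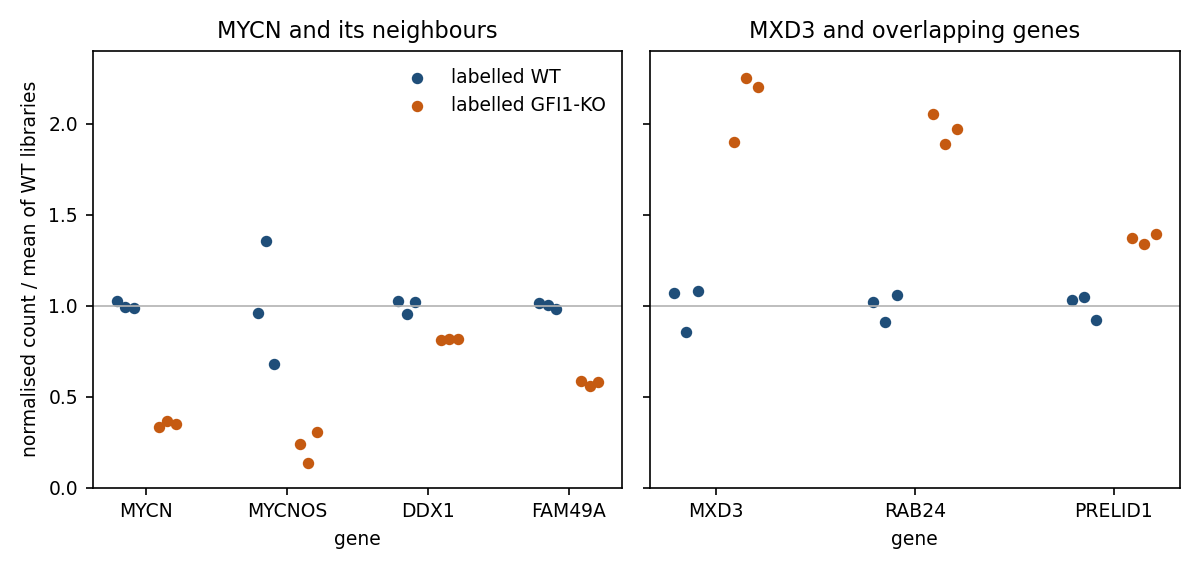
Normalised counts divided by the mean of the 3 WT libraries, with 1 point per library, for MYCN with its antisense and nearest protein-coding genes (left) and for MXD3 with the genes that overlap it (right). All GFI1-KO points of MYCN, MYCNOS, DDX1 and FAM49A lie below their WT points, and all GFI1-KO points of MXD3, RAB24 and PRELID1 lie above theirs.

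MYC (ENSG00000136997), on chromosome 8, was near the limit of what these libraries can show. It had 17, 12 and 14 counts in WT and 17, 18 and 23 in GFI1-KO. The groups overlapped in raw and in normalised counts, which were 15.1 ± 2.10 (SD, n = 3) and 18.3 ± 2.93. The log2 fold change was 0.27 (SE 0.33, adjusted p = 0.478 in edgeR), and its 95% interval reached from a 0.748-fold to a 1.94-fold level. A change of any size within that interval remains possible at this depth. The nearest protein-coding genes gave no measurable level, as POU5F1B had at most 3 counts in any library and GSDMC had 0 in all.

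MYCL (ENSG00000116990, chr1:39895426-39902256, minus strand) had 17, 5 and 17 counts in WT and 1, 1 and 5 in GFI1-KO. WT replicate 2 and GFI1-KO replicate 3 had the same raw count, and normalised to depth they stood at 5.53 and 4.71, so that the groups only just did not overlap. Summed, the counts were 39 and 7, which per total count is 6.30 times more in WT (95% exact binomial interval 2.79 to 16.7, counting error of these libraries only). MYCL was removed by the filter on low counts. Without the filter its log2 fold change was -2.55 (SE 0.61, adjusted p = 0.000109 in edgeR), and DESeq2 called it lower as well. Its neighbours TRIT1 and MFSD2A were called lower, by log2 fold changes of -0.50 and -0.42. After the GC and length correction that of TRIT1 was -0.13 and no longer called, and that of MFSD2A was -0.76.

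MAX (ENSG00000125952, chr14:65006174-65102695, minus strand, 5 exons), the partner that the others share, was the highest member by FPKM in both groups. It had 690, 652 and 576 counts in WT and 1013, 1015 and 1015 in GFI1-KO, with all GFI1-KO libraries above all WT libraries. Normalised counts were 678 ± 63.7 (SD, n = 3) and 961 ± 5.10, a log2 fold change of 0.50 (SE 0.06, 95% interval 0.38 to 0.63, adjusted p = 4.0e-08 in edgeR). The correction left it at 0.48. Of the 50-base words in MAX transcripts 13.7% also occur in other genes, mainly FNTB, on either strand, so its count may be uncertain. This is a share of words and not of reads, and its effect on the count was not tested. FNTB, a farnesyltransferase subunit gene, had 130, 110 and 116 counts in WT and 136, 144 and 186 in GFI1-KO and did not pass the test (adjusted p = 0.129 in edgeR).

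Before the correction, the largest increase among the repressors was that of MXD3 (ENSG00000213347, chr5:177301461-177312757, minus strand, 6 exons), a member of the MXD family often seen in cycling cells. It had 303, 224 and 298 counts in WT and 577, 689 and 679 in GFI1-KO. WT replicate 2 was the lowest library, and the groups were well apart. Normalised counts were 290 ± 36.7 (SD, n = 3) and 614 ± 55.9, a log2 fold change of 1.08 (SE 0.09, 95% interval 0.90 to 1.25, adjusted p = 1.4e-11 in edgeR). MXD3 is GC-rich, at 65.6% in its transcripts, and after the GC and length correction the log2 fold change was 0.41 (adjusted p = 3.7e-04 in edgeR), below those of MNT (0.54) and MXD1 (0.47). MXD3 also has the largest share of shared words in the network, which may make its count uncertain. Of its 50-base words 39.0% occur in other genes, chiefly RAB24 and PRELID1, which overlap it. RAB24, a small GTPase gene, moved from 137 ± 10.3 to 270 ± 11.2 normalised counts (SD, n = 3 each), with a log2 fold change of 0.98, and of 0.45 after the correction. PRELID1, a mitochondrial lipid transfer gene, moved from 1317 ± 90.4 to 1803 ± 40.0, and was no longer called after the correction, at a log2 fold change of -0.02. How much of the rise of MXD3 comes from reads of these genes was not tested.

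MNT (ENSG00000070444, chr17:2384060-2401118, minus strand, 6 exons), a widely expressed MAX partner that opposes MYC, rose to a similar degree. It had 211, 216 and 221 counts in WT and 482, 513 and 483 in GFI1-KO. The spread within each group was small against the gap between them. Normalised counts were 229 ± 11.8 (SD, n = 3) and 467 ± 17.0, a log2 fold change of 1.03 (SE 0.08, 95% interval 0.86 to 1.19, adjusted p = 8.6e-12 in edgeR). With 61.3% GC in its transcripts, it was also lowered by the correction, to 0.54, and was still called. Other genes hold 13.2% of its 50-base words.

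MXD4 (ENSG00000123933, chr4:2247432-2262294, minus strand, 6 exons), a family member linked to differentiation, had 674, 711 and 605 counts in WT and 606, 617 and 676 in GFI1-KO. Its groups overlapped in normalised counts, which were 704 ± 77.0 (SD, n = 3) and 599 ± 32.0. The decrease was called all the same, with a log2 fold change of -0.23 (SE 0.07, adjusted p = 0.00483 in edgeR), but it rested on WT replicate 2, without which it was -0.15 with adjusted p = 0.0515. After the GC and length correction it was -0.80.

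MXI1 (ENSG00000119950, chr10:110207605-110287365, plus strand, 6 exons), also known as MXD2, had 489, 382 and 429 counts in WT and 366, 385 and 442 in GFI1-KO. The raw counts interleave, while the normalised counts, 458 ± 39.5 (SD, n = 3) and 377 ± 35.1, did not overlap. The log2 fold change was -0.28 (SE 0.08, adjusted p = 0.00287 in edgeR), and -0.04 after the correction, where it was no longer called (adjusted p = 0.703 in edgeR).

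For MXD1 (ENSG00000059728, chr2:69897688-69942945, plus strand, 6 exons), which is known to rise as cells leave the cycle, the counts were 188, 197 and 231 in WT and 243, 267 and 235 in GFI1-KO. The groups overlapped once normalised, at 218 ± 25.0 (SD, n = 3) and 235 ± 16.2. The log2 fold change of 0.11 did not pass the test (SE 0.10, 95% interval -0.10 to 0.32, adjusted p = 0.327 in edgeR). After the correction it was 0.47 and was called (adjusted p = 3.2e-04 in edgeR). SNRNP27, which overlaps MXD1, was called higher at 0.16, and at 0.59 after the correction.

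MGA (ENSG00000174197, chr15:41621224-41773081, plus strand, 24 exons) had the highest counts of the network, 2341, 2229 and 2447 in WT and 2313, 2325 and 2332 in GFI1-KO. Normalised, they were 2478 ± 86.2 (SD, n = 3) and 2201 ± 5.18 and did not overlap. The log2 fold change was -0.17 (SE 0.04, adjusted p = 2.2e-04 in edgeR). Its direction turned with the correction, to 0.21 (adjusted p = 1.7e-05 in edgeR), so that these data fix no direction for MGA.

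**Figure D3:**
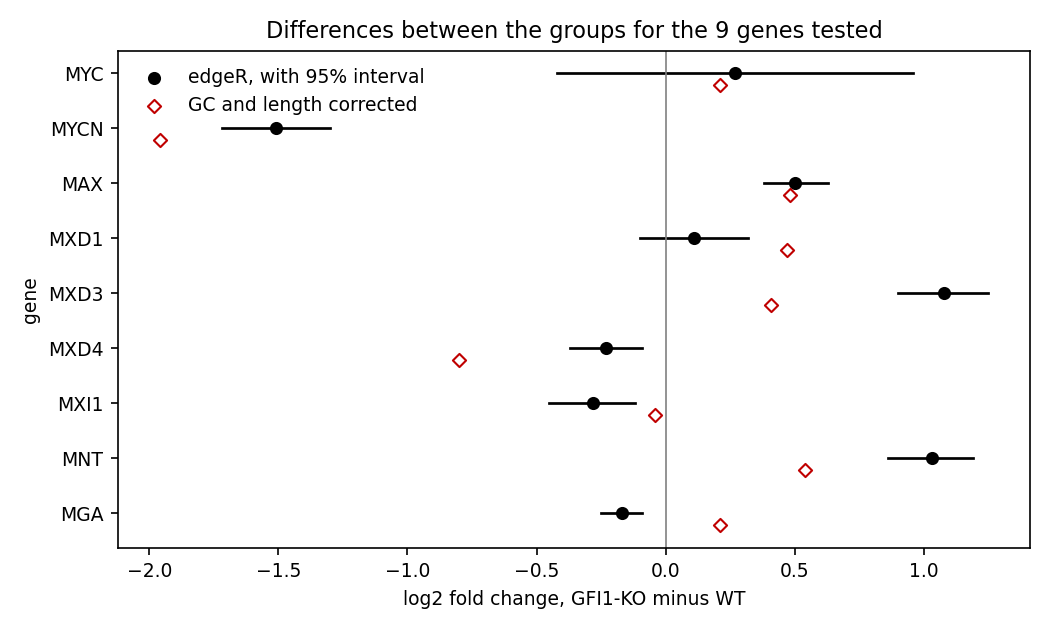
Log2 fold change, GFI1-KO minus WT, of the 9 genes tested, as edgeR gave it with its 95% interval (black) and after the GC and length correction (red diamonds, drawn without intervals). MYCN lies far to the left and MAX, MXD3 and MNT to the right in both, while MGA moves from -0.17 to 0.21 and MXD1 from 0.11 to 0.47.

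The order of the members by FPKM also differed between the groups. In WT, MAX stood highest at 9.28 ± 0.870 (SD, n = 3), followed by MGA at 8.52 ± 0.300, MYCN at 7.22, MXD4 at 6.05 ± 0.662 and MXI1 at 6.03 ± 0.517. MXD3 at 3.42 ± 0.432, MXD1 at 2.08 ± 0.240 and MNT at 1.59 ± 0.0828 came next, above MYC and MYCL. Neighbours in this order whose ranges overlapped were MAX with MGA, and MXD4 with MXI1. In GFI1-KO, MYCN had moved from the third to the seventh place, below MAX at 13.0 ± 0.0586, MGA at 7.48 ± 0.0126, MXD3 at 7.15 ± 0.656, MXD4 at 5.10 ± 0.276, MXI1 at 4.90 ± 0.461 and MNT at 3.21 ± 0.117. Below it was MXD1 at 2.22 ± 0.153. The size of this move rested on the length used, since per coding length MYCN stood at rank 7 in WT and 8 in GFI1-KO, and with no division by length at rank 5 and 8. By FPKM in GFI1-KO, neighbours whose ranges overlapped were MGA with MXD3, and MXD4 with MXI1.

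MYCN stood 2.13 ± 0.270 (SD, n = 3) times above MXD3 in WT and at 0.352 ± 0.0202 of it in GFI1-KO. Which of this pair was higher in WT depended on length, since per coding length the ratio was 0.478 ± 0.0604 in WT and 0.0788 ± 0.00452 in GFI1-KO. Summed over MYC, MYCN and MYCL, FPKM was 7.69 ± 0.252 in WT and 2.90 ± 0.146 in GFI1-KO. Over the 6 genes MXD1, MXD3, MXD4, MXI1, MNT and MGA it was 27.7 ± 0.183 and 30.1 ± 1.23. The ratio of the first sum to the second was 0.287, 0.271 and 0.274 in the WT libraries and 0.0952, 0.0974 and 0.0965 in the GFI1-KO libraries. It was lower in each GFI1-KO library than in any WT library with every length used, and MYCN makes up most of the first sum. These sums are of transcripts and say nothing of the proteins.

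Genes that work with or under the network were described through 8 lists of known partners and targets, by how many members were called beside the 36.5% of all genes called higher and the 35.9% called lower. For calls after the GC and length correction, the background is 5740 genes called higher and 4859 lower among 17415. MLX and its partners form a parallel branch that responds to glucose. Of its 5 genes 2 were called higher and 2 lower (median -0.31 on the log2 scale). MLX, the partner that stands where MAX stands, rose by 0.51 on the log2 scale and MLXIP by 0.18, whereas MLXIPL, at -0.31, did not pass. TXNIP and ARRDC4, arrestin genes that this branch activates, fell by 0.87 and 1.18 (-0.67 and -0.95 after the correction). After the GC and length correction 1 of the 5, MLX, was called higher and 4 lower, with MLXIP at -0.13.

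The SIN3-HDAC corepressor, which MXD proteins and MNT recruit, had 7 of 20 genes called higher and 10 lower (median -0.11). BRMS1 at 0.60 and SAP18 at 0.56 rose most, and the deacetylase gene HDAC2 at -0.90 and SINHCAF at -0.70 fell most. After the correction 8 were higher and 5 lower, with BRMS1 at 0.01 and no longer called, SAP18 at 0.71, HDAC2 at -0.29 and SINHCAF at -0.20. Among 11 partners of MGA in PRC1.6, 3 were called higher and 6 lower (median -0.19). The ubiquitin ligase gene RING1 rose by 1.06 and L3MBTL2 by 0.49 on the log2 scale, and YAF2 and CBX3 fell by 0.68 and 0.62. With the correction 4 were higher and 1 lower, RING1 and L3MBTL2 stood at 0.40 and 0.22, and YAF2 and CBX3, at 0.02 and -0.01, were no longer called. Of 14 germline genes known as targets of this complex, 9 had too few counts to be tested, among them DDX4, DAZL and MAEL at 0 in every library. Of the 5 tested, 3 were called lower, and TDRKH, a piRNA pathway gene, fell by 0.52 (-0.42 after the correction). Called higher by edgeR were 0, also at an unadjusted p under 0.05, and 0 by DESeq2 or limma-voom, while 1 was called higher without WT replicate 3.

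Coactivators of MYC had 8 of 14 genes called higher and 2 lower (median 0.13). The acetyltransferase genes KAT5 and EP300 rose by 0.99 and 0.58, whereas CCNT1, a subunit of the elongation factor P-TEFb, fell by 0.40 and the scaffold gene TRRAP by 0.27. With the correction the split turned to 4 higher and 7 lower, KAT5, EP300 and TRRAP stood at 0.53, 0.63 and -0.31, and CCNT1, at 0.07, was no longer called. Among 21 genes that act on the stability of MYC proteins, 6 were called higher and 14 lower (median -0.23), and 6 and 9 after the correction. The ubiquitin ligase gene STUB1 rose by 1.07 on the log2 scale. FBXW7, which encodes the ubiquitin ligase that marks phosphorylated MYC and MYCN for degradation, fell by 0.92, and CIP2A, whose product inhibits the phosphatase PP2A and stabilises MYC, fell by 0.76. AURKA, known to shield MYCN from FBXW7, fell by 0.20 and was not called after the correction. The corrected values of STUB1, FBXW7 and CIP2A were 0.34, -0.69 and -0.13.

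Known activated targets of MYC split about evenly before the correction, while after it more were called lower than higher. Of 61 genes 60 were tested, TERT being too low, and 26 were called higher and 24 lower (median 0.05 on the log2 scale). The ribosome biogenesis genes WDR74 and PPAN rose by 1.12 and 0.94. HK2, which encodes a hexokinase of the first step of glycolysis, fell by 1.62 and NDUFAF4, a complex I assembly gene, by 1.18. Other known targets went either way, as the values of ODC1 (-0.47), SRM (-0.52), CDK4 (0.59), MCM5 (0.92) and FBL (0.45) show, which were chosen after their values were seen. After the correction 13 were called higher and 25 lower (median -0.05), with PPAN and FBL no longer called, WDR74 at 0.65, HK2 at -1.63, NDUFAF4 at -0.70 and SRM at -1.24. 

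Among 11 genes known to be repressed by MYC, 5 were called higher and 4 lower (median 0.16), and 4 and 5 after the correction. FTH1, the ferritin heavy chain gene, had 3300, 3391 and 1794 counts in WT and 29266, 29164 and 30928 in GFI1-KO, and its log2 fold change was 3.23 (SE 0.12). WT replicate 3 was well below the other two, and 57.9% of the 50-base words of FTH1 occur in other genes, pseudogenes among them. CDKN1A, which encodes the cell cycle inhibitor p21, had 188, 214 and 189 counts in WT and 909, 950 and 945 in GFI1-KO (log2 fold change 2.08, SE 0.07). THBS1 and the inhibitor gene CDKN1C moved the other way, at -1.99 and -1.51. The values of FTH1, CDKN1A, THBS1 and CDKN1C after the correction were 3.11, 1.63, -1.77 and -2.20, and all 4 were called with and without it. Shared words, at over 10%, may also make the counts of KAT5, L3MBTL2, MLX, PPAN, WDR74, STUB1, CBX3, SINHCAF and TDRKH uncertain.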

How the data were processed

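RNA-Seq of H1155 cells was analysed in 3 libraries labelled WT and 3 labelled GFI1-KO. The authors deposited counts per gene and library, without normalization, with gene lengths and coordinates. Per the paper's methods, mRNA was poly-T selected, aligned to GRCh38/hg38 with Hisat2 and counted with featureCounts, whereas the submitters' processing notes list Bowtie2, HTSeq and hg38. Which of these made the table, and its strand setting, is not given in the sources used here.

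Groups were compared in R 4.3.3 by edgeR 4.0.16 (TMM factors, filterByExpr, quasi-likelihood F test), with Benjamini-Hochberg adjustment over the 17514 genes tested, no fold minimum and an adjusted p of at most 0.05. To normalise a count, it was divided by the library's TMM effective size and scaled to the mean of these sizes. Totals of 14882914 to 17692882 counts make 3 counts, the floor, 0.170 to 0.202 CPM, and floors and count intervals cover counting error only. Coding length, GC content and shared 50-base words came from GENCODE release 44. The correction fitted natural splines of 5 degrees of freedom to GC content and log length in each library, and was possible for 17415 of the genes tested. Other settings were DESeq2 1.42.0, limma-voom (limma 3.58.1), factors by upper quartile or median of ratios, no factors, no filter, a minimum of 10 counts in each sample, a block for the replicate number, each library left out and an adjusted p of at most 0.01. The fits were tested on simulated data.

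The members and lists were chosen with earlier results of these data known. Named are GFI1, the members, genes that overlap them, the nearest protein-coding genes of the 3 MYC genes, up to 2 called genes per list and direction with the largest change and a mean of at least 100 counts, all genes of lists of 5, and the 3 genes most like MYCN. Neuroendocrine markers are named as well, and other genes are illustrations chosen after their values were seen. Some genes that this rule names are not reported here. The authors' other libraries and assays were not analysed here. Python 3.11.15, pandas 2.3.3 and matplotlib 3.10.9 were used.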

Additional observations from a re-analysis of the deposited data

How the results depend on the processing

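Of the 7 called members, all 7 kept their call and direction in every setting other than the GC and length correction, which 5 passed, and the fit without WT replicate 2, in which MXD4 was lost. The log2 fold change lay between -1.96 and -1.48 for MYCN over 16 settings, and between 0.41 and 1.15 for MXD3, 0.54 and 1.05 for MNT and 0.42 and 0.54 for MAX.

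With the GC and length correction, alone and with the replicate block, 5 members were called higher and 2 lower, MGA turned to 0.21, MXD1 was gained at 0.47 and MXI1 was lost at -0.04. In the lists the calls became 1 higher and 4 lower for the MLX branch, 5 lower for SIN3-HDAC, 1 lower (2 with the block) for PRC1.6, 4 higher and 7 lower for coactivators, 9 lower for turnover and 13 higher (12 with the block) for activated targets. Among all 17415 genes so corrected, 5740 were called higher and 4859 lower, and 5707 and 4812 with the block. By construction, the correction removes a difference that follows GC content or length.

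The log2 fold change of GFI1 passed no longer with DESeq2 (0.31, adjusted p = 0.127), upper-quartile factors (0.27, adjusted p = 0.0545), the correction (0.18, adjusted p = 0.205) and the correction with the block (0.19, adjusted p = 0.206), and with single libraries left out it lay between 0.21 and 0.43, and passed no longer without WT replicate 2, WT replicate 3 or GFI1-KO replicate 2. Germline genes called higher numbered 0 to 1 when libraries were left out. The ratio of MYCN to the next MYC gene was 16.7 in WT and 5.90 in GFI1-KO per coding length, and 19.5 in WT with no division by length. The ratio of the MYC sum to that of the repressors was 0.0868 and 0.0289 per coding length and 0.0773 and 0.0287 with no division by length.

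Labels give both groups replicate numbers 1 to 3, but r between the deviations of same-numbered libraries was -0.00337, 0.0168 and 0.0230, and not every library correlated best with its own number. Fitted alone, the replicate block moved the calls from 12680 to 12573 and changed no call of a member, with MYCN at -1.51. The count of genes limits MYC and MYCL most, at 1 to 23 counts a library.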
